A study of Bos taurus with 16 samples.

Results

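The genes described here carry vitamin A (retinol) into cells and turn it into retinoic acid, with RDH16 as the starting point. A custom single-colour array was read for the probes whose gene name is RDH16, RDH10, RBP4, STRA6, ALDH1A1, ALDH1A2, CRABP1, CRABP2 or CYP26A1. There were 23 such probes among 46615 non-control probes, and they named 8 of the 9 genes. No probe carries the name ALDH1A2. RDH16 was put on the list because its endometrial signal was higher in cows with subclinical endometritis (SCE) than in healthy cows, so for all listed genes the endometrial comparison of SCE and healthy cows is given as a description, with no p-value and with counts from which nothing is read.

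Retinol travels in blood bound to the carrier RBP4 and enters many cells through the membrane receptor STRA6. Dehydrogenases such as RDH10 and RDH16 oxidise it to retinal, and the aldehyde dehydrogenases ALDH1A1 and ALDH1A2 oxidise retinal to retinoic acid, which acts on nuclear receptors. CRABP1 and CRABP2 bind retinoic acid in the cytoplasm, and CYP26A1 inactivates it. In ruminants the uterine glands and stroma are known to make retinol carriers and to respond to ovarian steroids.

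The 16 arrays came from 8 multiparous Holstein-Friesian cows at 45 to 55 days postpartum, 4 with SCE (cows 718, 833, 836 and 846) and 4 healthy (cows 841, 850, 877 and 883). SCE was diagnosed by histology in cows without clinical signs of disease. Each cow gave 1 sample of circulating white blood cells (WBC), as RNA from a PAXgene blood tube, and 1 transcervical endometrial biopsy, with no pooling of animals. Cows in the luteal and in the follicular phase stood in both groups. Per the paper, most SCE cows were luteal and the healthy cows were split evenly, so phase was not balanced between the groups. The labels do not give the phase of single cows. Replicates are therefore cows, and p-values measure the spread between 4 cows per group.

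Probe positions below are those in the array's own annotation (build HGSC Btau_3.1), and sequences are the opening 30 bases of each 60-base probe, read 5′ to 3′ from the array files. Whether a probe lies in an exon, an intron or a UTR was not analysed here. The 3 RDH16 probes are shown because they do not give the same result. All lie on the plus strand of chromosome 5, the first at chr5:61047415-61047474, the second at chr5:61047063-61047122 and the third at chr5:61041650-61041709. The starts of the first and second are 352 bases apart, and the third starts 5413 bases before the second.
RDH16, the first probe (A_73_P047926): agtggagatcctgacagagaacacagaaac
RDH16, the second probe (A_73_P431456): tttgtagtgagaaactgagatcagtagctc
RDH16, the third probe (A_73_P342761): acagagtaaaaggggaacaactgttagagc

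The 5 STRA6 probes are shown because they gave unlike differences between tissues. They lie on the plus strand of chromosome 21, at chr21:34584674-34584732, chr21:34584676-34584735, chr21:34584218-34584277, chr21:34569558-34569617 and chr21:34561613-34561672 in the order of the lines below. Capitals mark the 27 bases that the first and second share within the printed stretch. The first has 60 bases but is annotated over 59, so its annotated offset from the second need not match the printed sequences.
STRA6, the first probe (A_73_106763): gttGGTATGCCCTTAGAGATTATGAAAGAG
STRA6, the second probe (A_73_P111606): GGTATGCCCTTAGAGATTATGAAAGAGgtt
STRA6, the third probe (A_73_P277371): tctggttggatcgaagtctatcagcactat
STRA6, the fourth probe (A_73_P400776): ttggaagatactggctctgctgtattaccc
STRA6, the fifth probe (A_73_P343436): gagagctaaaagcaagaaagtaacctttag

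CRABP1 has 2 probes on the plus strand of chromosome 21, shown because their signals in blood differ. The first is annotated at chr21:30797440-30797499, and the second spans 3740 bases, chr21:30793589-30797328.
CRABP1, the first probe (A_73_P045026): gatgtccccccagtaatgctgtagtgtttt
CRABP1, the second probe (A_73_P108106): atcctgacgttcggcgccgatgacgtggtc

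All values are log2 normalised intensities (log2 of the median spot signal after quantile normalisation over the 16 arrays), and differences are on the same log2 scale. Probes differ in their binding, so levels are compared between samples and not between probes. For a gene with several probes, the leading probe is the one with the highest mean over all arrays. A spot was counted as detected when the scanner software marked it well above background, which held for 64.7% to 79.8% of spots per array. Of the 23 probes, 12 were well above background on all 8 endometrium arrays, 4 on all 8 WBC arrays, 13 on no WBC array and 2 on no array at all.

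The endometrium of SCE cow 833 stood apart. Its median correlation with the other endometrium arrays was 0.940, against 0.973 to 0.979 for the others, and its median signal above local background was 79, against 248 to 316. The mean of 5 adipocyte genes (ADIPOQ, PLIN1, FABP4, LEP and CIDEC) was 13.56 in this biopsy and 5.91 to 6.20 in the other 7, and that of 5 endothelium genes was 13.12 against 10.29 to 11.17. Results that rest on this cow are given with and without it. All 4 leukocyte genes were higher in WBC, with list means of 15.09 to 15.39 in WBC and 10.41 to 11.44 in endometrium, and all 9 epithelium genes were well above background on every endometrium array. The epithelium list did not separate the tissues as a whole, since 5 of its 9 genes were also well above background on all WBC arrays and 4 were higher and 3 lower in endometrium past the adjusted threshold.

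The tissue comparison asked where each gene is expressed. On their leading probes, RBP4, STRA6, RDH10, ALDH1A1 and CRABP2 were higher in endometrium, and RBP4, STRA6 and CRABP2 were well above background there and in no blood sample. The leading probes of RDH16, CRABP1 and CYP26A1 did not pass the test between tissues. Of the 23 probes, 16 passed an adjusted p of 0.05 in limma's TREAT test for a change beyond 1.2-fold, 15 of them higher in endometrium and 1 lower. Among the 15 was the first RDH16 probe, and the high SCE biopsies for which RDH16 was listed enter its tissue difference. Over all probes tested the share called was 53.9%, with 22.7% higher in endometrium and 31.2% lower. In 12 of the 23 probes the 8 endometrium and 8 WBC values did not overlap, against 37.0% of all probes. Each tissue had a slide of its own, which means that an effect of the slide cannot be told apart from one of the tissue. In bulk tissue, fewer cells of a type and less RNA per cell cannot be told apart either.

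**Figure D1:**
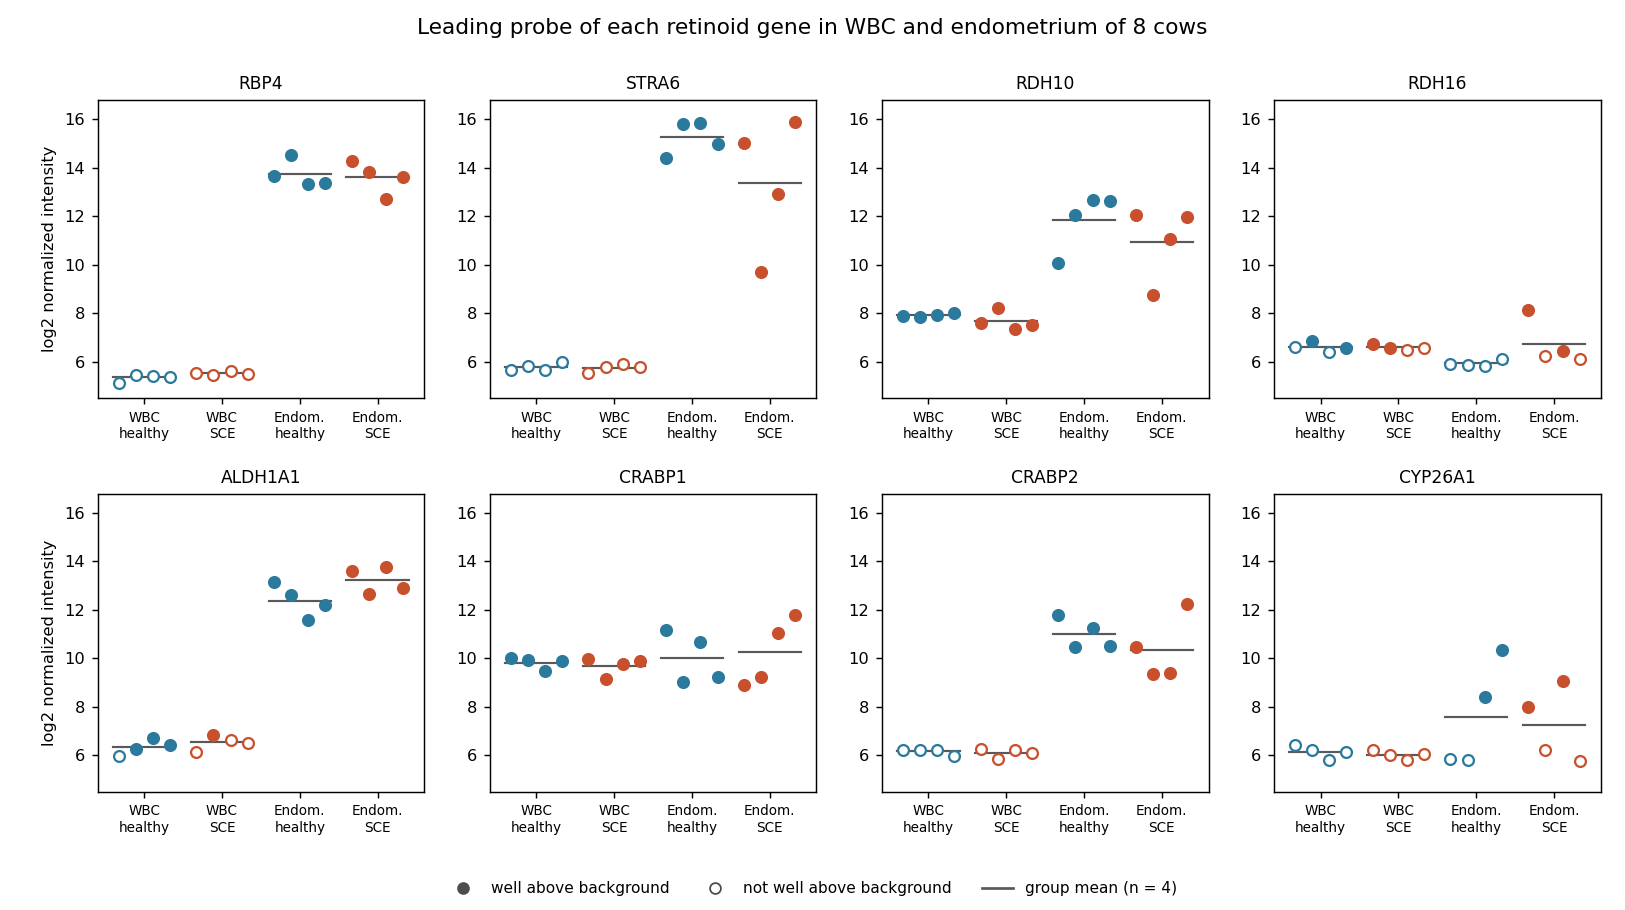
Log2 normalised intensity (y axis) of the leading probe of each gene in WBC and endometrium, healthy cows in blue and SCE cows in orange, 1 point per cow and a line at the mean of 4 cows. Filled points are well above background. RBP4 and STRA6 lie between 5.15 and 6.01 in WBC and between 9.71 and 15.89 in endometrium, whereas CRABP1 overlaps between tissues.

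RBP4, the retinol carrier, was high in every biopsy. On its leading probe the healthy endometria read 13.68, 14.55, 13.34 and 13.37 (cows 841, 850, 877 and 883) and the SCE endometria 14.31, 13.82, 12.73 and 13.61 (cows 718, 833, 836 and 846). In WBC it lay between 5.15 and 5.62, and no WBC array was well above background. The tissues did not overlap, and the level was at least 243-fold higher in endometrium (limma TREAT, adjusted p = 3.8e-14), higher in 8 of 8 cows (exact permutation test by sign changes, two-sided p = 0.0078, the smallest possible). Such lower bounds set the mean of the bright tissue against the dimmest signal that counted as well above background on the other arrays, or the probe's own signal there if higher. The other RBP4 probe was at least 12.3-fold higher (adjusted p = 1.1e-10). SCE and healthy endometria overlapped, with a difference of -0.12 (SE 0.38) that was -0.35 without cow 718, 0.18 without cow 836 and 0.15 without cow 850.

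STRA6, the retinol receptor, was bright in most biopsies on its leading probe, with a wide spread between them. The healthy endometria read 14.43, 15.83, 15.85 and 15.004 on the leading (first) probe and the SCE endometria 15.05, 9.71, 12.91 and 15.89, while WBC lay between 5.56 and 6.01 with none well above background. Endometrium was at least 361-fold higher (adjusted p = 1.1e-08), in 8 of 8 cows (exact permutation test, p = 0.0078). The second probe, whose annotated start is 2 bases away, gave at least 238-fold (adjusted p = 5.9e-08). It shares 27 of its 30 printed bases with the first, so the 2 are not independent readings. The third gave a difference of 5.02 (SE 0.60, adjusted p = 3.1e-06). These 3 probes rose and fell together over the 8 biopsies, with Pearson's r of 0.995 to 0.999 as a description.

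The other STRA6 probes did not share that pattern. The fourth was detected on all 16 arrays and lower in endometrium, at 8.26 to 9.44 against 9.20 to 10.15 in WBC, a difference of -0.97 (SE 0.18, adjusted p = 0.0018). That call was absent with quantile normalisation within each tissue (difference 0.01, adjusted p = 1). The fifth was well above background on 1 of 16 arrays. Their starts lie 15116 and 23061 bases before that of the first probe. Over the biopsies the fourth correlated with the first at r = -0.35, a value that was not tested. The 5 probes named STRA6 thus did not give the same result, and the lower endometrial signal of the fourth depended on the normalisation.

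STRA6 was also where SCE and healthy biopsies lay furthest apart among the leading probes, yet the groups overlapped. The mean was 13.39 ± 2.76 (SD, n = 4) in SCE and 15.28 ± 0.69 (SD, n = 4) in healthy cows, a difference of -1.89 (SE 1.21). SCE cows 833 and 836 were the 2 lowest of the 8, and SCE cow 846 was the highest. Without cow 833, whose biopsy carried the adipocyte signal, the difference was -0.66, and without cow 846 it was -2.72.

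RDH10, the main retinol dehydrogenase of embryonic tissues, was detected in both tissues. The healthy endometria read 10.07, 12.07, 12.68 and 12.64 on the leading probe and the SCE endometria 12.04, 8.78, 11.07 and 11.97, against 7.37 to 8.20 in WBC. No WBC value reached the lowest biopsy, that of cow 833. Endometrium was 12.2-fold higher (difference 3.61, SE 0.45, adjusted p = 5.2e-06), in 8 of 8 cows (exact permutation test, p = 0.0078). The second probe gave 3.17 (SE 0.44, adjusted p = 2.0e-05) and was higher in 7 of 8 cows. SCE minus healthy in endometrium was -0.90 (SE 0.84) with overlapping groups, and -0.17 without cow 833.

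RDH10 and STRA6 were both lowest in the biopsy of cow 833. Over the 8 cows their leading probes correlated at Pearson's r = 0.87 (exact permutation test, p = 0.015) and Spearman's rho = 0.67 (exact permutation test, p = 0.083). Among the 21 pairs of 7 genes this was the strongest by r, and RDH16 with ALDH1A1 and STRA6 with CRABP2 were the strongest by rho (0.69 each). CYP26A1 was left out of the pairs because its biopsy values fell into separate clusters. No pair passed adjustment (for RDH10 and STRA6, adjusted p = 0.32 for r and 0.48 for rho). Without cows 833 and 841, the 2 farthest from the median of RDH10, r was 0.75, and without cow 833 alone it was 0.61.

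**Figure D2:**
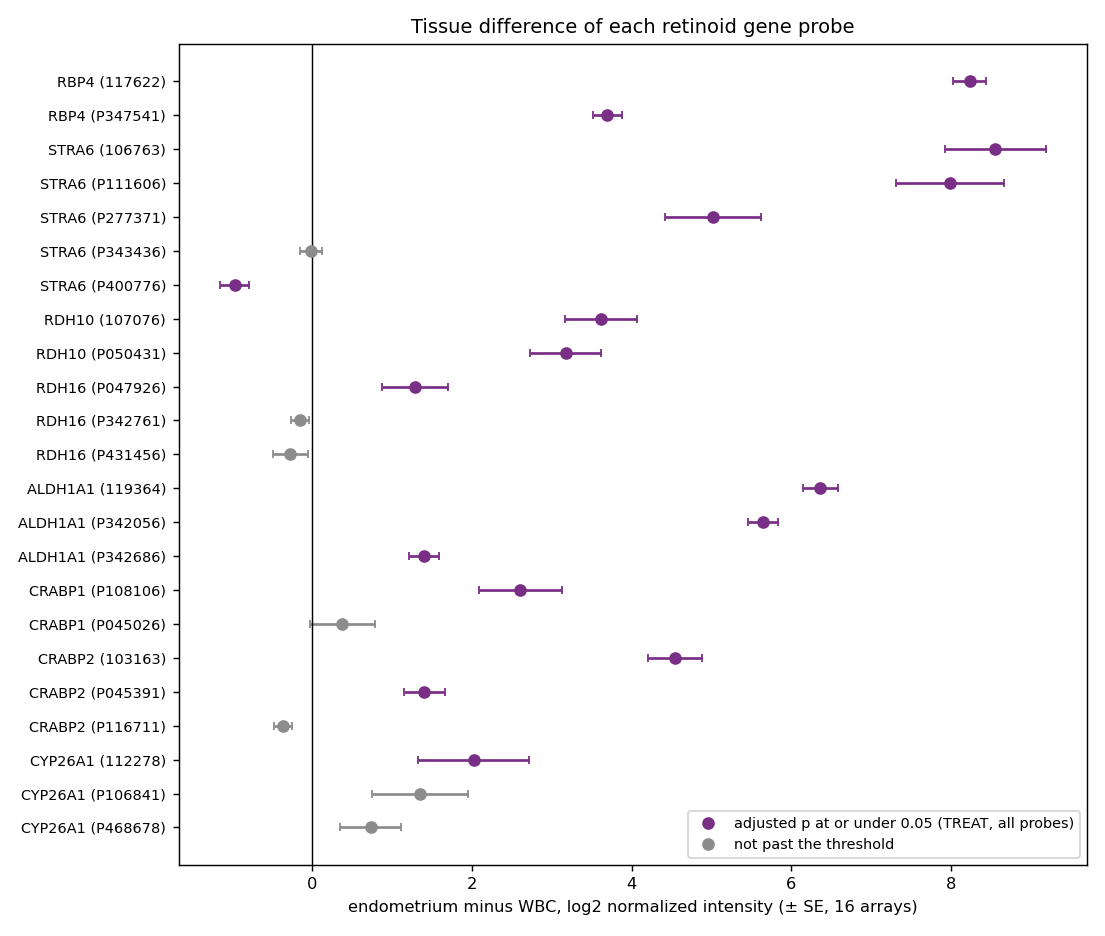
Endometrium minus WBC (x axis, log2 normalised intensity, bars ± SE from the fit of 16 arrays) for each of the 23 probes, with the probe number in brackets. Purple points passed the adjusted threshold. The 5 STRA6 probes run from -0.97 to 8.55, and the 3 RDH16 probes from -0.27 to 1.29.

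RDH16, a microsomal dehydrogenase known mainly from liver, was dim in both tissues. On the first probe the healthy endometria read 5.75, 6.40, 5.75 and 6.48 and the SCE endometria 10.08, 6.62, 7.72 and 6.81. SCE cow 718 was by far the highest, cow 836 came next, and the lowest SCE value lay just above the highest healthy value, so the groups did not overlap. It was well above background in 3 SCE biopsies (cows 718, 836 and 846) and 1 healthy biopsy (cow 883). The SCE mean was 7.81 ± 1.59 (SD, n = 4) and the healthy mean 6.09 ± 0.40 (SD, n = 4), a difference of 1.71 (SE 0.70) that was 0.96 without cow 718 and 2.11 without cow 833. Within the rows of the slide, each with 2 SCE and 2 healthy cows, the difference was 2.28 in row 1 and 1.15 in row 2.

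The second RDH16 probe, which is the leading one, showed the same cow on top with a smaller rise. The healthy endometria read 5.91, 5.88, 5.85 and 6.12 and the SCE endometria 8.12, 6.24, 6.46 and 6.10. The groups overlapped, since SCE cow 846 lay below healthy cow 883, and 2 SCE biopsies and no healthy biopsy were well above background. The difference was 0.79 (SE 0.41) and 0.33 without cow 718. It was 2.07 with the scanner software's background-subtracted signal scaled to the 75th percentile. The third probe read 5.39 to 5.89 over all biopsies and was not well above background on any array. Over the 8 biopsies the first and second correlated at r = 0.97.

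In WBC the first RDH16 probe was well above background only in healthy cow 877, at 7.05, and read 5.12 to 5.68 in the other 7. The second read 6.42 to 6.87 in WBC, with 2 healthy and 2 SCE arrays well above background. Endometrium minus WBC was 1.29 (SE 0.42, adjusted p = 0.028) on the first probe, higher in 7 of 8 cows, and -0.27 (SE 0.22, adjusted p = 0.66) on the second, which did not pass. On the first probe the means were 6.09 in endometrium and 5.79 in WBC of healthy cows, and 7.81 and 5.55 in SCE cows. The SCE biopsies that put RDH16 on the list enter these tissue differences, so nothing is read from that call. The call on the first probe was lost with normexp background correction and without cow 841, 850, 883 or 836 (adjusted p up to 0.082). The second probe's difference was 0.28 with normalisation within each tissue and passed only without cow 718.

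**Figure D3:**
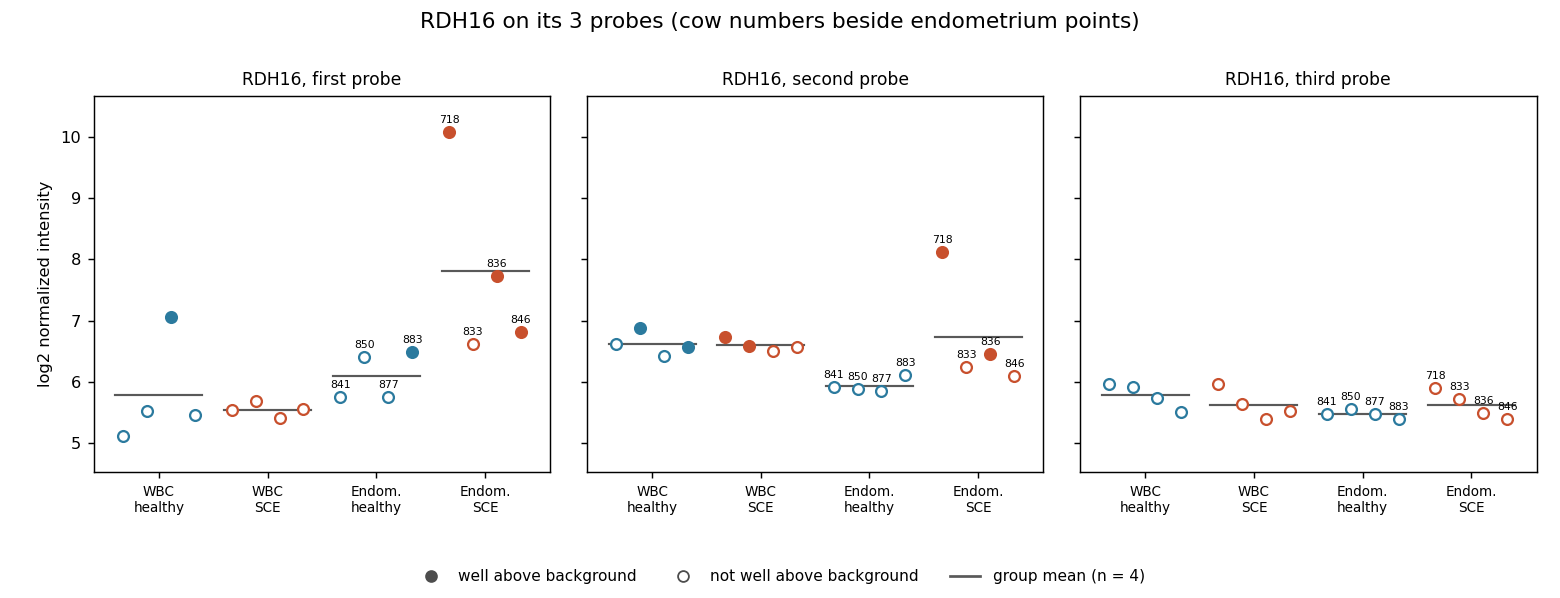
Log2 normalised intensity (y axis) of RDH16 on its 3 probes in WBC and endometrium, 1 point per cow with cow numbers beside the biopsies, lines at the means of 4 cows and filled points well above background. SCE cow 718 is the highest biopsy on all 3 probes, at 10.08, 8.12 and 5.89.

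Cow 718, the highest for RDH16, also had the highest T cell, leukocyte, B cell and plasma cell, and monocyte and macrophage lists among the biopsies. Its T cell list (6 genes) averaged 10.67, against 10.01 to 10.35 in the other 7. Its leukocyte list (4 genes) averaged 11.44 against 10.41 to 10.97, and its B cell and plasma cell list (3 genes) 11.21 against 8.96 to 10.27. The B cell gene CD79A of that last list did not follow, at 12.07 in cow 718 and 12.03 to 12.64 in the other 7. The neutrophil list (7 genes) was highest in cow 833, at 8.48, with cow 718 at 7.85. In WBC, where the leukocyte list was higher than in any biopsy, the first RDH16 probe was well above background on 1 of 8 arrays and the second on 4 of 8, with a mean of 6.61 on the second against 6.33 in endometrium. The part of these cells in the RDH16 signal was not tested.

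The genes whose endometrial pattern was most like RDH16 were sought among 12448 genes, by Pearson's r of the leading probes over the 8 biopsies. They were TRAF3IP3 (r = 0.99), SLAMF6 (r = 0.98), WC1.3 (r = 0.98), C5AR2 (r = 0.97) and PSPN (r = 0.97). SLAMF6 is a surface receptor of lymphocytes and WC1.3 a receptor of bovine gamma delta T cells. In cow 718 TRAF3IP3 read 10.00, SLAMF6 7.21, WC1.3 10.30, C5AR2 8.41 and PSPN 10.37, each the highest of the 8. Without cow 718, r was 0.90 for TRAF3IP3, 0.93 for SLAMF6, 0.79 for WC1.3, 0.54 for C5AR2 and 0.61 for PSPN, so it fell furthest for the last 2. The leading RDH16 probe then read 5.85 to 6.46 and was well above background only in cow 836. Those r values compare readings near background and do not settle which likeness rests on cow 718. The r that chance would give among 12448 genes was not tested. With the first RDH16 probe, a choice made after the data were seen, TRAF3IP3, SLAMF6 and WC1.3 again led, followed by SLC25A48 and KXD1. TRAF3IP3, SLAMF6 and C5AR2 were brighter in WBC (14.01 to 14.57, 11.72 to 12.38 and 9.65 to 10.94) than in any biopsy. The WBC values of WC1.3 (9.59 to 10.44) and PSPN (10.27 to 11.00) overlapped the biopsy of cow 718.

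ALDH1A1, which makes retinoic acid from retinal, was high in all biopsies. The healthy endometria read 13.13, 12.60, 11.57 and 12.21 on the leading probe and the SCE endometria 13.59, 12.66, 13.77 and 12.88, with WBC at 5.99 to 6.84. Every biopsy lay far above every blood sample. Endometrium was 82.2-fold higher (difference 6.36, SE 0.22, adjusted p = 1.5e-12), in 8 of 8 cows (exact permutation test, p = 0.0078). The second probe gave at least 49.9-fold (adjusted p = 1.1e-12), and the last, annotated over 1400 bases, gave 1.40 (SE 0.19, adjusted p = 3.5e-05).

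In the endometrium ALDH1A1 leaned towards SCE cows. SCE cows 836 and 718 were the 2 highest and healthy cows 877, 883 and 850 the 3 lowest, while healthy cow 841 lay above SCE cows 833 and 846. The difference was 0.85 (SE 0.37), between 0.58 and 1.102 when any 1 cow was left out. It was 0.26 in row 1 of the slide and 1.44 in row 2.

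ALDH1A2 could be followed only through 4 probes whose description, not their name, gives ALDH1A2 or a gene like it. The brightest read 8.32 to 11.35 in endometrium and 8.77 to 9.51 in WBC, and SCE cow 846 was the highest biopsy. Its difference between tissues was 0.15 (SE 0.38, adjusted p = 0.92). The other 3 read 5.15 to 7.31 over all arrays.

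CRABP1 and CRABP2, which bind retinoic acid in the cytoplasm, varied from biopsy to biopsy. On the first (leading) CRABP1 probe the healthy endometria read 11.17, 9.03, 10.66 and 9.22 and the SCE endometria 8.90, 9.24, 11.06 and 11.80. In each group 2 biopsies lay above 10 and 2 below. In WBC this probe was well above background on all arrays at 9.15 to 10.02, and the tissue difference of 0.37 (SE 0.41, adjusted p = 0.63) did not pass. It was 1.35 (adjusted p = 0.018) with normalisation within each tissue.

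The second CRABP1 probe followed the first over the biopsies (r = 0.95) but not in blood. The healthy endometria read 9.64, 7.40, 9.27 and 7.61 and the SCE endometria 7.12, 6.30, 9.61 and 10.37, while WBC stayed at 5.21 to 6.18 with no array well above background. Endometrium was at least 5.50-fold higher on this probe (adjusted p = 6.3e-04), in 8 of 8 cows.

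CRABP2 was well above background in every biopsy and in no blood sample on its leading probe. The healthy endometria read 11.78, 10.46, 11.24 and 10.52, the SCE endometria 10.46, 9.37, 9.38 and 12.23, and WBC 5.86 to 6.27. The level was at least 23.3-fold higher in endometrium (adjusted p = 1.5e-08), in 8 of 8 cows (exact permutation test, p = 0.0078). SCE minus healthy was -0.64 (SE 0.64) with overlapping groups, -0.31 without cow 833 and -1.26 without cow 846. A second probe was at least 2.35-fold higher in endometrium (adjusted p = 6.8e-04), and the third was not well above background on any array.

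CYP26A1, the enzyme that clears retinoic acid and is itself induced by it in many tissues, was either on or off in single biopsies. On the leading probe the healthy endometria read 5.85, 5.80, 8.41 and 10.33 and the SCE endometria 7.98, 6.20, 9.08 and 5.76. It was well above background in healthy cows 877 and 883 and in SCE cows 718 and 836 and in none of the other biopsies, so each group held 2 positive cows. All WBC arrays were below that mark, at 5.80 to 6.41. The other probes gave the same 4 cows, and the 3 probes correlated at r = 0.945 to 0.996 over the biopsies.

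Averaged over cows, the CYP26A1 tissue difference was 1.34 (SE 0.60, adjusted p = 0.096) on the leading probe and 2.02 (SE 0.70, adjusted p = 0.027) on the probe A_73_112278. The latter call, an at least 3.37-fold difference, was lost without any 1 of the 4 positive cows (adjusted p up to 0.083). SCE minus healthy was -0.34 (SE 1.14), and it ran from -0.95 to 0.57 when single cows were left out. The oxytocin receptor gene OXTR ranged from 7.18 to 12.44 over the same biopsies and the progesterone receptor gene PGR from 8.18 to 11.80. Their part and that of the cycle phase were not tested.

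**Figure D4:**
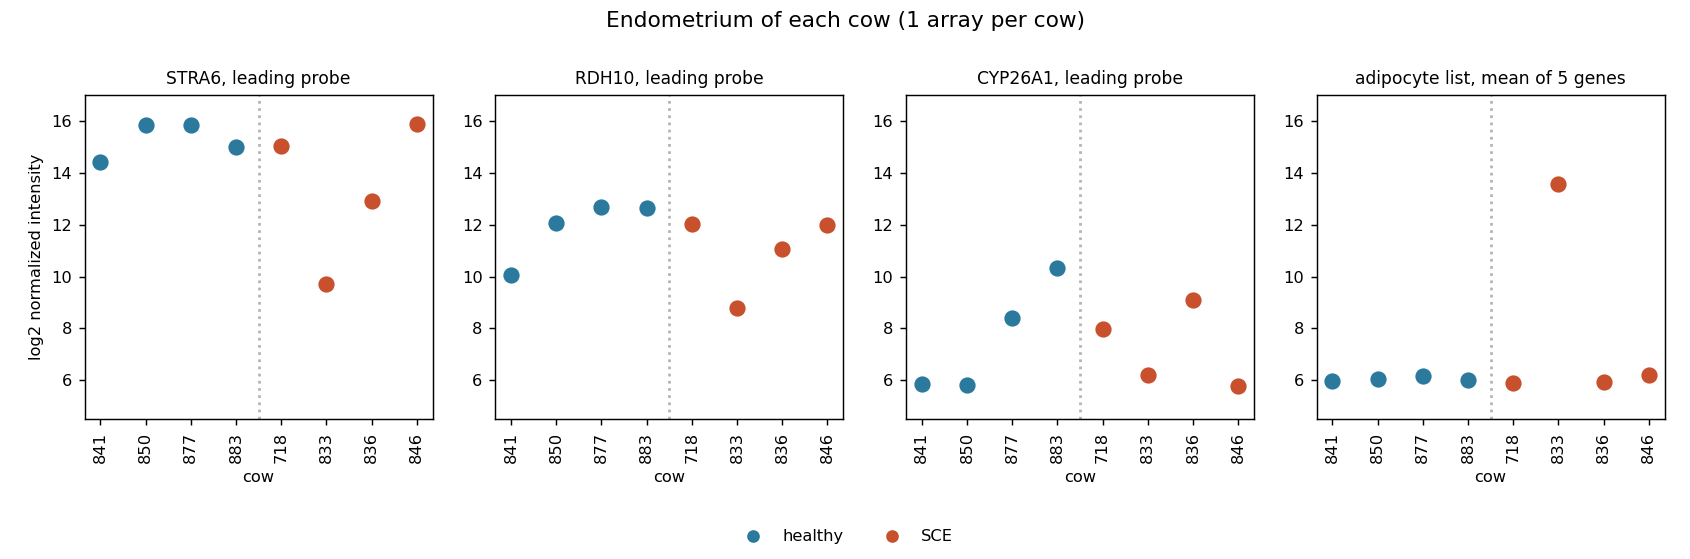
Log2 normalised intensity (y axis) in the endometrium of each cow (x axis, 1 array per cow, healthy in blue and SCE in orange) for the leading probes of STRA6, RDH10 and CYP26A1 and for the mean of 5 adipocyte genes. Cow 833 is lowest for STRA6 (9.71) and RDH10 (8.78) and highest for adipocyte genes (13.56).

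In the endometrial comparison 1 of the 23 probes, the first of RDH16, had an unadjusted TREAT p under 0.05, where 0.453% of all probes did (211 of 46578), and it was also the single probe without overlap of the groups, where 1.63% of all probes had none. RDH16 was chosen from this contrast, so nothing is read from these counts. No probe of any gene passed adjustment. The members' differences ran from -1.89 to 1.71 with a median of -0.12, and 9 of 23 were higher in SCE cows, beside a median of 0.00 over all probes.

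In WBC no listed gene separated SCE from healthy cows. None of the 23 probes passed TREAT before or after adjustment, where 0.122% of all probes passed before (57 of 46602) and none after, and the groups overlapped on every probe, where 1.3% of all probes had no overlap. The largest difference was 0.55 (SE 0.24), for the fifth STRA6 probe, and those of the leading probes ran from -0.25 for RDH10 (SE 0.18; exact permutation test, p = 0.20) to 0.18 for ALDH1A1 (SE 0.20; exact permutation test, p = 0.43). The smallest exact p among the leading probes was 0.057, for RBP4, a gene not well above background in WBC. With 4 against 4 cows the smallest two-sided p is 0.029. The test of whether the SCE effect differed between endometrium and WBC called 0 of 23 probes after adjustment and 1 of 23 before it, the first of RDH16, where 0.496% of all probes passed. That test contains the contrast that chose RDH16, so nothing is read from it.

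The wider pathway was followed on 49 other genes with a probe, of 55 listed. Between tissues, 34 of the 49 leading probes passed the adjusted threshold, 14 higher in endometrium and 20 lower, where 53.9% of all probes passed, 22.7% higher and 31.2% lower. These genes had a median difference of -0.15 beside -0.16 over all probes. RARRES1, a retinoic acid responsive gene, was 8.19 higher in endometrium (SE 0.45), the transglutaminase TGM2 4.44 higher (SE 0.42) and RARRES2, which encodes chemerin, 4.36 higher (SE 0.26). The 3 largest differences in the other direction were -4.66 (SE 0.24) for CEBPE, -4.08 (SE 0.74) for DGAT2 and -4.02 (SE 0.13) for the dehydrogenase DHRS9. CEBPE is a transcription factor of granulocytes, and DGAT2 was listed with the genes of ester storage and carotenoid cleavage. Of the retinoid receptors and intracellular carriers, 6 of 7 passed, 5 of them lower in endometrium, and of the retinol and retinal dehydrogenases 9 of 13 passed, 5 higher and 4 lower.

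LRAT, which esterifies retinol inside cells, and SDR16C5, a retinol dehydrogenase, were picked for mention after their values were seen. LRAT read 9.56, 7.38, 9.33 and 12.36 in healthy endometrium and 9.63, 8.33, 13.35 and 10.24 in SCE endometrium, with WBC at 5.83 to 6.52 in 7 cows (the spot of cow 841 was an outlier and left out of the fit), a tissue difference of 3.78 (SE 0.71, adjusted p = 4.0e-04). SDR16C5 was higher in 8 of 8 biopsies than in the same cow's blood, by 3.39 on average (SE 0.67, adjusted p = 5.4e-04). SCE minus healthy was 0.73 (SE 1.26) for LRAT and 0.63 (SE 1.27) for SDR16C5, and without cow 833 it was 1.41 for each.

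Between SCE and healthy biopsies, 34 of the 49 pathway genes were higher in SCE cows and 15 lower, where 22845 of all 46578 probes were higher. One pathway gene passed TREAT unadjusted, where 0.453% of all probes did, and none passed adjusted. Among genes well above background on at least 4 biopsies, the differences with the highest values were those of CD36, a fatty acid and carotenoid receptor (1.69, SE 1.78), the lipid chaperone FABP5 (1.56, SE 1.43) and the lipase LPL (1.002, SE 1.26). All were highest in the biopsy of cow 833, where CD36 read 15.88, FABP5 16.10 and LPL 13.03. Without that cow the differences were -0.38 for CD36, -0.05 for FABP5 and -0.43 for LPL. The count of higher genes was then 22 of 49 (20610 of 46578 over all probes) and the median -0.03, from 0.09 with all cows. All 9 genes of ester storage and carotenoid cleavage were higher in SCE with all cows and 7 of 9 without it.

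The genes furthest in the other direction were RARRES1 (-1.48, SE 0.84), CYP1B1, which can act on retinol (-1.17, SE 0.85), and CYP27C1, a retinol desaturase (-0.99, SE 0.35). CYP27C1 was the 1 gene that passed unadjusted. It read 6.97, 7.85, 6.90 and 7.92 in healthy endometrium and 6.79, 5.59, 6.72 and 6.60 in SCE endometrium, without overlap. In cow 833 (5.59) it was not well above background, and 1.63% of all probes had no overlap. Without cow 833 these differences were -0.93 for RARRES1, -0.31 for CYP1B1 and -0.71 for CYP27C1, and none passed.

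**Figure D5:**
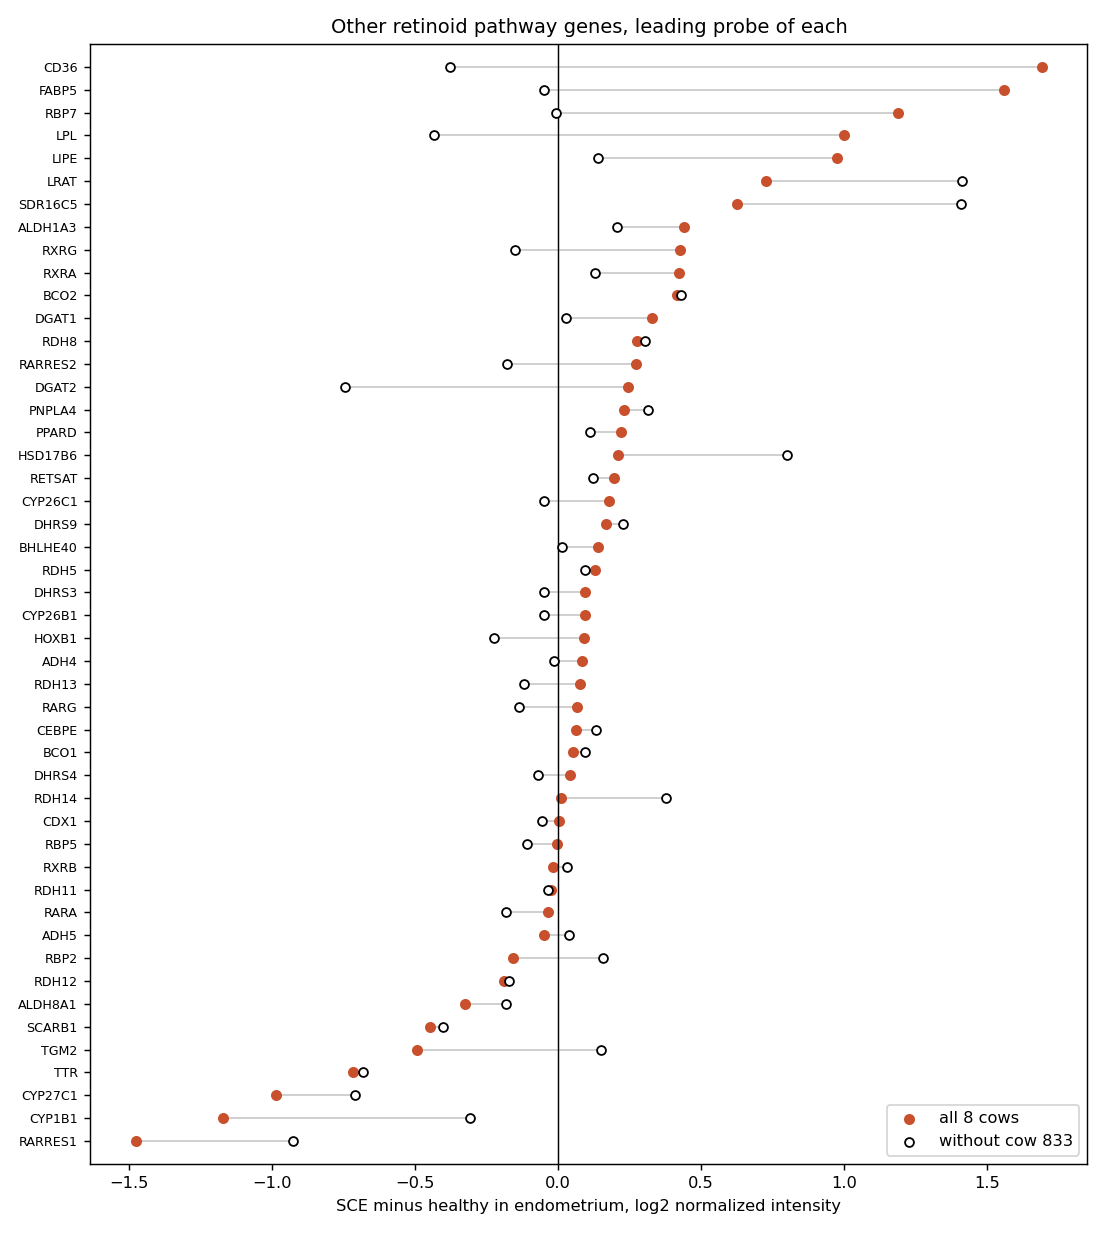
SCE minus healthy in endometrium (x axis, log2 normalised intensity) for the leading probes of 48 of the 49 other retinoid pathway genes, with all 8 cows (orange) and without cow 833 (open). CD36 moves from 1.69 to -0.38 and FABP5 from 1.56 to -0.05.

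In WBC none of the 49 pathway genes passed, unadjusted or adjusted, and the median difference was 0.00. Among the highest were RARG, a retinoic acid receptor (0.32, SE 0.32), and LPL (0.28, SE 0.41). The lowest were CEBPE (-0.34, SE 0.42), the dehydrogenase DHRS4 (-0.30, SE 0.21) and the retinol saturase RETSAT (-0.28, SE 0.17).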

How the data were processed

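Per the file headers, scans were quantified in Feature Extraction 10.10.1.1 (Agilent). The authors deposited the intensity of every spot with background estimates and quality marks, without normalisation. They also deposited a table of quantile-normalised linear intensities, used here as an alternative. Its median difference from the quantile-normalised median signals, spot by spot, was 0.0415%. Custom arrays held 52689 non-control spots and 1319 control spots each. From the deposited intensities the median signal was taken without background correction, control spots and outlier spots (190 to 465 per array) were left out, log2 values were quantile-normalised over 16 arrays, and repeat spots of a probe were then averaged. No array had more than 1 saturated spot. Low signals are compressed towards the background level in this scheme, so differences of dim probes are understated. The number of arrays, 4 per group, limits precision.

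Within a tissue, the 4 SCE cows were set against the 4 healthy cows, and endometrium against WBC in 1 model of 4 groups. Fits used lmFit and treat (1.2-fold) of limma 3.58.1 under R 4.3.3, with Benjamini-Hochberg adjustment over all probes. Exact permutation tests, by listing every rearrangement, were run for leading probes. Spearman's rho was computed with scipy 1.17.1. The fit was tested on simulated data. Groups came from the sample labels. The listed genes and gene lists were chosen with earlier results of these data known. Named pathway genes were the 3 largest rises and 3 largest falls among genes detected on at least 4 arrays of a comparison, and any passing unadjusted TREAT; 1 of them is not reported here. The alternatives were normalisation within tissue, 75th percentile scaling of the processed signal, normexp (offset 50), the authors' table, a filter on dim probes, no fold threshold, slide row or cow as a block, 1 fit of all arrays, the mean of all probes of a gene, and leaving out each cow. The samples of a cow are paired by animal. The deviations of a cow's arrays from their group means correlated at -0.33 to 0.14 over 23777 probes.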

Additional observations from a re-analysis of the deposited data

Results flagged for a closer look

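Of 32 groups of 4 cows on the leading probes, 1 held a sample far from the others, where chance flags about 1 group in 20. CRABP2 in WBC of healthy cows was lowest in cow 883, at 5.98 against 6.21 to 6.24 in the other 3, and the gap took up 0.893 of the group's range. No WBC array had this probe above the background mark.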

How the results depend on the processing

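Between tissues, 14 to 18 of the 23 probes passed the adjusted threshold under every alternative, and 13 of the 16 calls held in all of them. The median tissue difference of all probes was -0.16, and it was 0.35 with normalisation within tissue and -0.40 with the 75th percentile scaling. With cow as a replicate block, 16 of 23 probes and 34 of 49 pathway genes passed between tissues, as without pairing, and the block changed no other count by over 1.5 times. For SCE against healthy cows no alternative gave a member past adjustment in either tissue. The counts before adjustment moved in the endometrium to 2 (75th percentile scaling), 0 (normexp), 0 (dim probes left out), 0 (slide row as a block) and 2 (1 fit of 16 arrays) member probes, and over all probes to 422 (75th percentile), 936 (no fold threshold) and 505 (1 fit of 16 arrays), with 2 pathway genes in that last fit. In WBC they moved to 1 member probe and 242 of all probes (75th percentile) and to 1 and 673 (no fold threshold). For the difference between tissues in the SCE effect they moved to 2 (75th percentile), 0 (normexp) and 0 (dim probes left out) member probes, and over all probes to 415 (75th percentile) and 832 (no fold threshold). The first RDH16 probe, the member called before adjustment in the main fit, was not well above background on all 4 arrays of any group. Leaving out dim probes therefore removed it, so that setting could not call it. The cause of the other moves was not tested.

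Leaving out 1 cow gave 0 to 5 endometrial member probes before adjustment, 5 without cow 846, and 153 to 820 of all probes, the highest again without cow 846. The pathway count in endometrium ran from 0 to 2. In WBC it gave 0 to 1 member probes, 1 without cow 836, and 53 to 674 of all probes, the highest without cow 833. For the difference in SCE effect it gave 0 to 4 member probes, 169 to 797 of all probes, 0 to 8 of all probes after adjustment (8 without cow 846) and 0 to 2 pathway genes. RDH16 was chosen from the endometrial contrast, which the difference in SCE effect contains. Nothing is therefore read from the member counts of either under any alternative. Weak signals limited RDH16, CYP26A1 and the WBC values of the leading probes of RBP4, STRA6 and CRABP2, where most or all spots were not well above background.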
